A study of Mus musculus with 40 samples.

Results

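The genes described here are 34 members of the pathway of cholesterol synthesis, uptake and efflux, chosen by symbol for their place in it, and all 34 stood on 1 line each among the 53863 symbols of a table of gene counts. They are 18 synthesis enzymes, 5 regulators of synthesis and uptake, 3 intracellular sterol carriers, 2 liver X receptors (LXRs), 4 efflux transporters and 2 esterification enzymes. The animals were adult wild-type C57BL/6 mice that had been housed at 22 °C on a standard diet. For the last 24 h they stayed either at 4 °C, called cold here, or at 30 °C, called thermoneutral, which serves as the control. Messenger RNA was sequenced from the interscapular brown fat pad (BAT), from inguinal white fat (iWAT), from epididymal white fat (eWAT) and from liver, 5 libraries for each of the 8 groups of tissue and exposure. All mice had the same genotype. Whether libraries of equal number in different groups came from 1 mouse is not stated. The p-values set a difference between groups against the spread between these libraries. The main contrasts between tissues treat the 40 libraries as independent.

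Cholesterol is made from acetyl-CoA through mevalonate, isoprenoids, squalene and lanosterol, and the enzymes of this route are induced together when cell sterol falls. The sensor is the pair of SCAP and SREBP2 in the endoplasmic reticulum: with little sterol SCAP escorts SREBP2 to the Golgi, where it is cut into an active transcription factor, and with ample sterol the INSIG proteins hold SCAP back. When sterol and its oxidised derivatives accumulate, the LXRs switch on exporters of the ABC family, and surplus sterol is stored as ester by the SOAT enzymes. In brown fat the same pathway runs beside thermogenesis, while in liver it feeds lipoproteins and bile.

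Total counts ran from 46508261 to 86681722 per library, a depth at which only Abcg5, Abcg8 and Soat2 were too low to test, and this in BAT and iWAT alone. The 5 thermoneutral liver libraries came from a separate table that had been joined to the other 35 by gene symbol, so in liver exposure and tabulation cannot be told apart. Library names run in sequence except those of cold liver 4 and 5 and of cold eWAT 5, with 1 number skipped before cold eWAT 4. Cold liver 5 also stood apart in its values, and cold liver 3 in its share of mitochondrial counts, as described with the liver results. Defining markers of the labelled tissues were high: 6 hepatocyte genes summed to at least 93900 counts scaled to library size (CPM) in every liver library, 7 adipocyte genes to at least 7640 CPM in every fat library, and 4 brown adipocyte genes to 11800 to 15900 CPM in cold BAT and 1800 to 2240 CPM in thermoneutral BAT. Some fat libraries also held markers of other tissues: the hepatocyte genes summed to 9.7 to 926 CPM in cold eWAT and 9 to 2940 CPM in thermoneutral eWAT, and 5 skeletal muscle genes to 2.46 to 2900 CPM in cold iWAT, 3.65 to 13600 CPM in thermoneutral iWAT, 4.41 to 2380 CPM in cold BAT and 111 to 3230 CPM in thermoneutral BAT. In tissue RNA, fewer cells of a type and less RNA per cell cannot be told apart.

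Promoter sequences are shown for 3 enzymes whose RNAs were called in different directions in BAT. Hmgcs1 and Hsd17b7 were higher in cold BAT and Acat2 was lower, the last an uncertain call, as described below. The sequences are RefSeq entries of the build GRCm38.p6, read 5′ to 3′ on the gene's strand, with bases annotated as exon left out. Capitals mark the short sterol element CACNCCAC and the CCAAT box on either strand, where N is any base. The Hmgcs1 sequence is chr13:119690101-119690350 on the plus strand (bases -250 to -1 from the start), that of Hsd17b7 is chr1:169969242-169969408 on the minus strand (-203 to -37) and that of Acat2 is chr17:12960748-12960975 on the minus strand (-250 to -23).
Hmgcs1: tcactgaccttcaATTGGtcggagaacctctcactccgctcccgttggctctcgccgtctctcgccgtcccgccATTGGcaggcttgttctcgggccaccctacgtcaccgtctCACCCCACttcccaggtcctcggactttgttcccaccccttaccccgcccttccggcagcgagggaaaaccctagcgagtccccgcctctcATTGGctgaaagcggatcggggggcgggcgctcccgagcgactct
Hsd17b7: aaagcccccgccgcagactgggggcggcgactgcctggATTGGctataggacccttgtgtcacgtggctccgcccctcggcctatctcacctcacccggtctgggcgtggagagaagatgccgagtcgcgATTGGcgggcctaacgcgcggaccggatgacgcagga
Acat2: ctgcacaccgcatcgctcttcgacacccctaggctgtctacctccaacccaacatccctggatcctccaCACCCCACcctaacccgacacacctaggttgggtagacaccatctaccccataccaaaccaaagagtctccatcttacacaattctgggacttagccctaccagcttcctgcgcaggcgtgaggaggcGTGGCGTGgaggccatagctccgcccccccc

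For 27 of the 34 members a promoter entry of 300 bases was used, set beside all 27025 genes with an entry. Members on chromosome 18, Npc1 and Stard4, were left out, whereas no chromosome was left out of the 27025 genes. The CCAAT box lay in the entries of 22 members (81.5%, against 41.1% of all genes), and the GC box GGGCGG, which Sp factors bind, in 22 (81.5%, against 38.2%). The short sterol element CACNCCAC was found in 3 (11.1%, against 7.12%), namely Hmgcs1 at -136 to -129, Insig1 at -9 to -2 and Acat2 at -181 to -174 and at -53 to -46. The longer form TCACNCCAC, which contains the short one, was found in Hmgcs1 alone (3.7%, against 1.44%). The E-box CACGTG was in 6 (22.2%, against 8.09%), and the LXR element DR4, a repeat of AGGTCA after any 4 bases, was in 0 (0.0148% of all genes had it). All motifs were searched on both strands, and a match describes these letters only.

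In BAT the cold separated the enzymes of the pathway into risers and fallers. Hsd17b7, Sqle, Hmgcs1, Msmo1 and Cyp51 rose, Fdft1, Tm7sf2, Dhcr7 and Acat2 fell, and the other 9 of 18 enzymes did not pass the test. The LXR gene Nr1h3, the exporter Abcg1 and the SREBP regulators Insig2, Srebf2 and Scap rose, while Insig1 and the lysosomal carrier Npc2 fell. Tested with edgeR (quasi-likelihood F-test, Benjamini-Hochberg adjustment over 15288 genes), 11 of the 31 tested members were higher and 7 lower, which is 58.1% against the 60.2% of all tested genes that were called in this tissue (30.2% higher and 30.0% lower). The members were therefore called about as often as any gene, and their median log2 change was 0.29, against -0.04 over all genes.

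**Figure D1:**
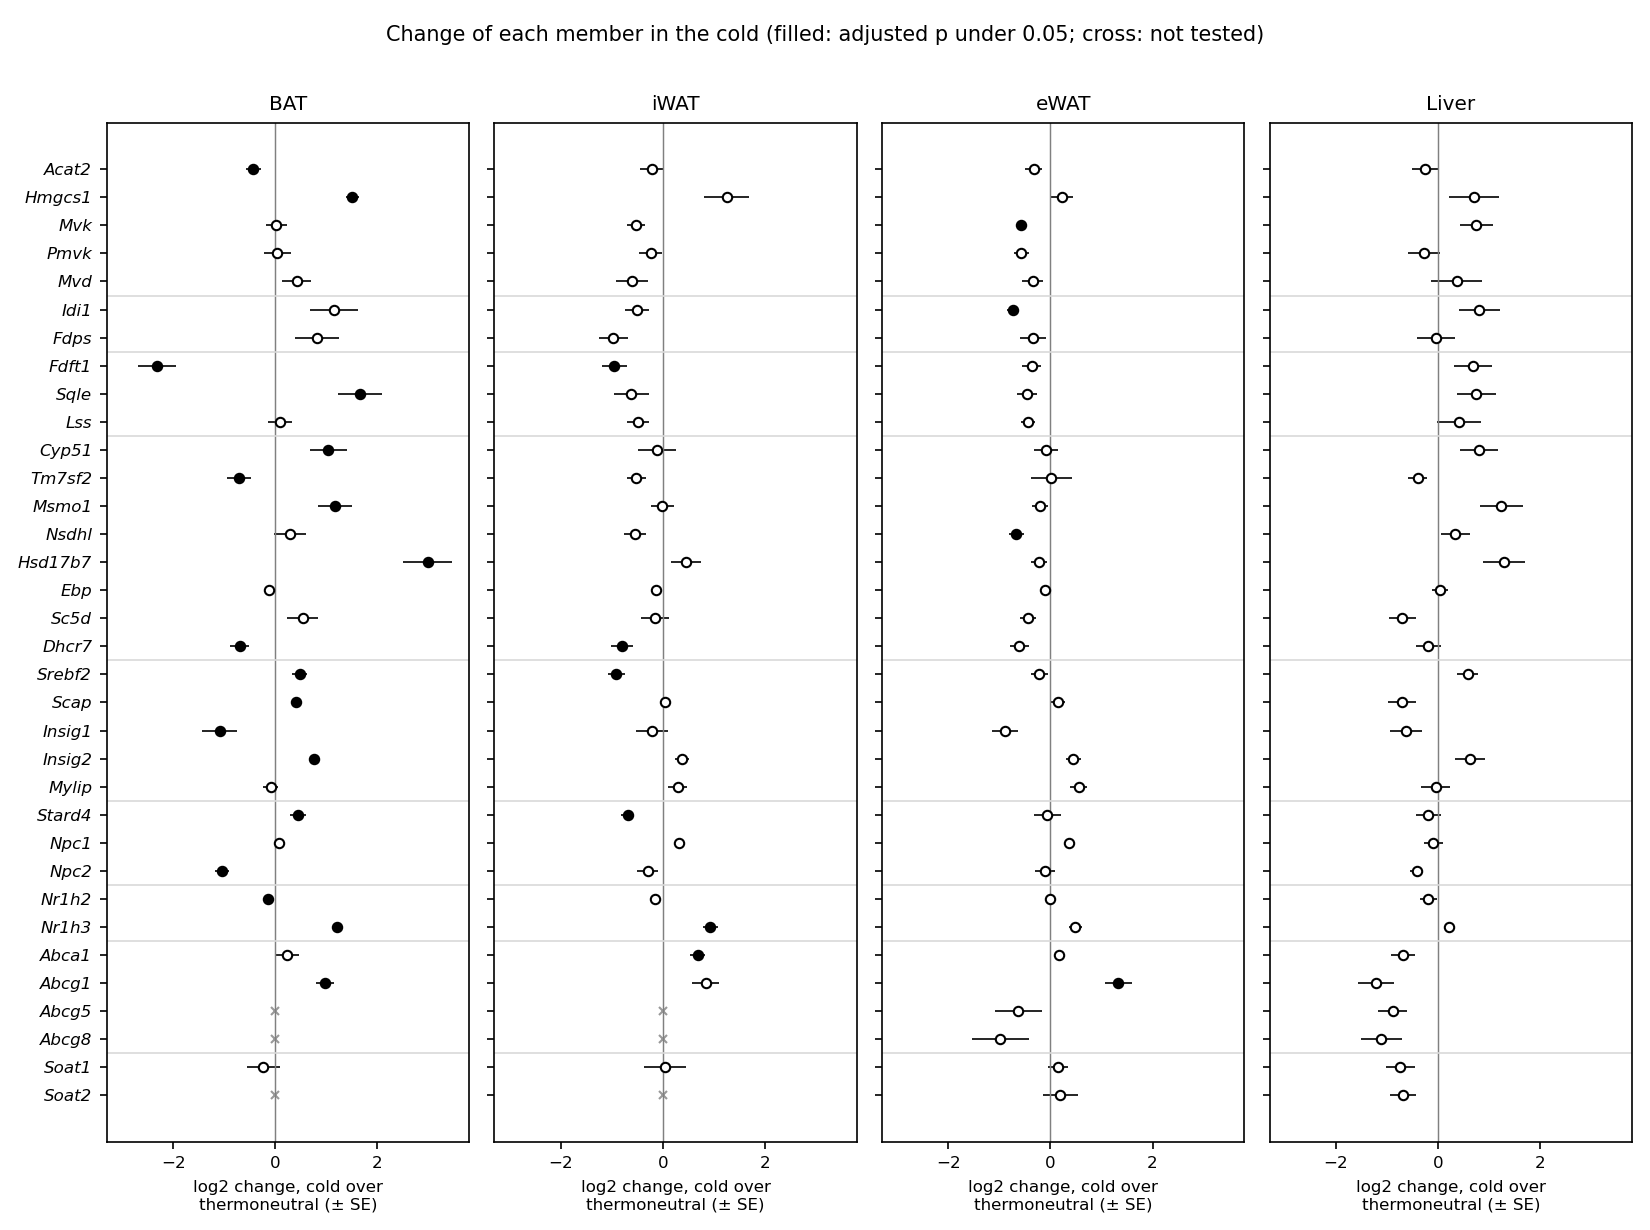
Log2 change of cold over thermoneutral (horizontal axis, ± SE) for the 34 members (rows, by role) in BAT, iWAT, eWAT and liver. Filled points have an adjusted p under 0.05 and crosses mark members not tested; BAT holds 18 filled points, iWAT 6, eWAT 4 and liver 0.

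The first steps lead to mevalonate. Hmgcs1, the cytosolic synthase that joins acetoacetyl-CoA and acetyl-CoA (chromosome 13, 119690379 to 119708260, GRCm38), had 284, 280, 308, 374 and 317 CPM in cold BAT, against 82.8, 121, 120, 130 and 95 CPM in thermoneutral BAT. Every cold library lay above every thermoneutral one, and the mean of 313 ± 37.8 CPM in cold BAT was 2.85 times the 110 ± 20 CPM of thermoneutral BAT (SD, n = 5 each, log2 1.51 ± 0.13 SE, edgeR adjusted p = 2.27e-06). Acat2, the thiolase that makes acetoacetyl-CoA one step earlier, had 69.1, 101, 118, 143 and 112 CPM in cold BAT, against 136, 146, 150, 144 and 151 CPM in thermoneutral BAT. Its groups overlapped only through cold library 4, and it fell by 0.43 on the log2 scale (SE 0.15, edgeR adjusted p = 0.029). That call was lost when any of 6 of the 10 libraries was left out, with adjusted p up to 0.0744 (without cold library 2). Acat3, a near-identical copy of Acat2, was also lower, at 0.308 ± 0.152 CPM in cold BAT and 8.39 ± 4.56 CPM in thermoneutral BAT (log2 -4.77 ± 0.56, edgeR adjusted p = 3.39e-05), so reads split between the copies make the Acat2 value uncertain. The kinases and decarboxylase of mevalonate did not pass the test, with log2 changes of 0.02 for Mvk, 0.04 for Pmvk and 0.42 for Mvd.

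Isoprenoid units are made and joined next. Idi1, the isopentenyl diphosphate isomerase, had 29.6, 33.5, 56.6, 182 and 74.4 CPM in cold BAT, against 26.6, 28.2, 37.2, 42.0 and 34.8 CPM in thermoneutral BAT. Cold library 4 was far above the rest and the 2 lowest cold libraries lay inside the thermoneutral range, so the log2 change of 1.15 ± 0.47 did not pass (edgeR adjusted p = 0.0589). Without cold library 1 or cold library 2 it did (adjusted p = 0.0247 and 0.0333). Fdps, which makes farnesyl diphosphate, had a log2 change of 0.82 ± 0.43 (adjusted p = 0.123), and 1.12 (adjusted p = 0.0424) without thermoneutral library 4.

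At the branch into sterols, 2 neighbouring enzymes went opposite ways. Fdft1, squalene synthase (chromosome 14, 63145150 to 63179578, minus strand), had 10, 16.8, 23.8, 45.1 and 32.3 CPM in cold BAT, against 156, 147, 105, 91.3 and 135 CPM in thermoneutral BAT. The ranges were far apart, and Fdft1 fell by 2.31 on the log2 scale (SE 0.37, edgeR adjusted p = 0.000367), so thermoneutral BAT had 4.97 times the level of cold BAT. Its exons share 774 bases (18.3%) with Ctsb on the other strand, and since the library kit does not keep the strand, reads there cannot be assigned to either gene. Ctsb, a lysosomal protease, averaged 910 ± 101 CPM in cold BAT and 1050 ± 129 CPM in thermoneutral BAT (log2 -0.21, adjusted p = 0.12). Sqle, the squalene epoxidase that follows (chromosome 15, 59315077 to 59331192, plus strand), had 21.7, 22.9, 40.1, 87.5 and 40.2 CPM in cold BAT, against 9.37, 8.56, 17.1, 20.8 and 11.3 CPM in thermoneutral BAT. The groups did not overlap and Sqle rose 3.16-fold (log2 1.66 ± 0.43, edgeR adjusted p = 0.00713). Lss, lanosterol synthase, was at 36.9 ± 8.96 CPM in cold BAT and 34.7 ± 11.4 CPM in thermoneutral BAT (log2 0.09, adjusted p = 0.755).

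The largest rise of any member was in the late steps. Hsd17b7, the sterol 3-ketoreductase that works with Nsdhl and Msmo1 in removing methyl groups (chromosome 1, 169949535 to 169969241, minus strand), had 17.7, 18.9, 34.5, 90.8 and 44.8 CPM in cold BAT, against 3.72, 3.56, 6.54, 5.76 and 6.36 CPM in thermoneutral BAT. The lowest cold library was above every thermoneutral library, and the mean of 41.4 ± 29.8 CPM in cold BAT was 7.96 times the 5.19 ± 1.44 CPM of thermoneutral BAT (SD, n = 5 each, log2 2.99 ± 0.48, edgeR adjusted p = 0.000433). Msmo1, the C4-methylsterol oxidase, had 15.3, 14.7, 22.9, 43.9 and 20.1 CPM in cold BAT, against 6.6, 7.79, 13.0, 15.6 and 9.02 CPM in thermoneutral BAT. The lowest cold libraries lay just inside the thermoneutral range, and Msmo1 rose 2.24-fold (log2 1.17 ± 0.34, edgeR adjusted p = 0.014). Cyp51, the lanosterol demethylase, averaged 44.7 ± 28.3 CPM in cold BAT and 21.6 ± 4.16 CPM in thermoneutral BAT (log2 1.04 ± 0.36, adjusted p = 0.03), a call lost without thermoneutral library 1, 2 or 5 (adjusted p = 0.0702, 0.0629 and 0.055). Dhcr7, the last reductase of the route, went the other way, with 8.72, 11, 12.6, 18.5 and 11 CPM in cold BAT, against 17.2, 16, 22.2, 24.5 and 20.3 CPM in thermoneutral BAT. Only cold library 4 reached the thermoneutral range, and Dhcr7 fell by 0.70 on the log2 scale (SE 0.19, edgeR adjusted p = 0.00774). Tm7sf2, a C14-sterol reductase that shares 532 exon bases with Vps51, was at 2.75 ± 1.1 CPM in cold BAT and 4.5 ± 0.371 CPM in thermoneutral BAT and fell by 0.71 (adjusted p = 0.0194, and 0.0564 without cold library 5). Sc5d, Nsdhl and Ebp did not pass, with log2 changes of 0.54, 0.29 and -0.12.

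The enzymes moved together between the libraries of cold BAT. Cold library 4 had the highest level of all 18 enzymes among the cold libraries, whether the enzyme was higher or lower than at thermoneutrality, and cold library 1 had the lowest of 13. Summed over the 18 enzymes, cold BAT had 657, 724, 911, 1490 and 973 CPM, against 612, 654, 738, 822 and 667 CPM in thermoneutral BAT. The median coefficient of variation of an enzyme was 37.9% in cold BAT and 24.9% in thermoneutral BAT, where the median over all tested genes was 15% in cold BAT and 14.1% in thermoneutral BAT. The 9 lymphocyte markers summed to 1.5 to 9.22 CPM in cold BAT and 5.14 to 15.9 CPM in thermoneutral BAT, with 4 of 9 lower, none at 0. With their mean as a covariate 6 members were higher (Hmgcs1, Hsd17b7, Insig2, Scap, Nr1h3 and Abcg1) and 2 lower (Fdft1 and Npc2), while for example Sqle (adjusted p = 0.246), Msmo1 (0.368) and Dhcr7 (0.0615) were no longer called. The markers' part in the result was not tested.

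**Figure D2:**
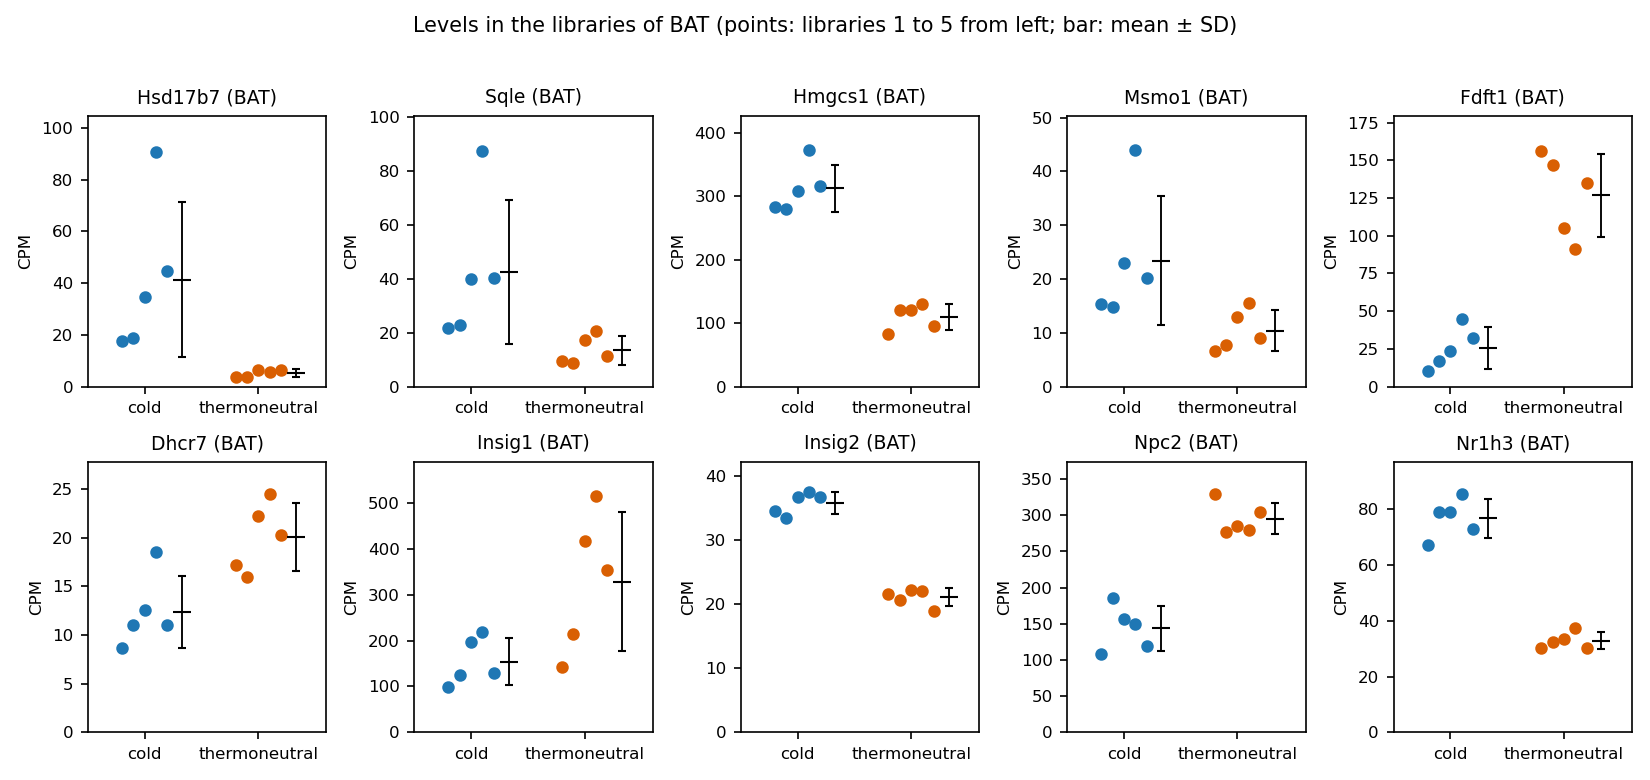
CPM (vertical axis) of 10 members in the 5 cold (left, blue) and 5 thermoneutral (right, orange) BAT libraries, 1 point per library, with the mean and SD. Hsd17b7, Sqle, Hmgcs1, Insig2 and Nr1h3 sit higher in the cold without overlap, Fdft1 and Npc2 lower without overlap, and Insig1 overlaps.

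Among the regulators, the 2 INSIG genes, whose products retain SCAP, diverged in BAT. Insig1 had 98.5, 126, 196, 218 and 130 CPM in cold BAT, against 142, 214, 417, 515 and 353 CPM in thermoneutral BAT. The groups overlapped and both spread widely, and Insig1 fell by 1.09 on the log2 scale (SE 0.35, edgeR adjusted p = 0.0206), a call that was lost without thermoneutral library 4 or without cold library 1, 2 or 5 (adjusted p = 0.0501, 0.0571, 0.057 and 0.0529). Insig2 had 34.6, 33.5, 36.8, 37.5 and 36.7 CPM in cold BAT, against 21.6, 20.7, 22.3, 22.1 and 18.9 CPM in thermoneutral BAT. Both groups were tight and apart, and Insig2 rose by 0.76 ± 0.07 (edgeR adjusted p = 1.92e-06). Srebf2, which encodes SREBP2, had 39.7, 46.2, 60.6, 74.3 and 60.8 CPM in cold BAT, against 36.5, 39.5, 42.3, 44.8 and 38.1 CPM in thermoneutral BAT, and rose by 0.48 ± 0.15 (adjusted p = 0.0145). Scap rose by 0.41 ± 0.06 (44.7 ± 2.22 CPM in cold BAT and 33.7 ± 1.62 CPM in thermoneutral BAT, adjusted p = 0.000116), with no overlap. In a model of 8 group means over all tissues the calls of Scap, Srebf2, Stard4, Acat2 and Nr1h2 in BAT were lost (adjusted p = 0.101, 0.0509, 0.135, 0.117 and 0.205). Mylip, the ubiquitin ligase that marks lipoprotein receptors for decay, was at 21.9 ± 3.36 CPM in cold BAT and 23.3 ± 4.64 CPM in thermoneutral BAT (log2 -0.09, adjusted p = 0.607).

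On the side of sterol surplus, the LXR gene Nr1h3 (LXR alpha; chromosome 2, 91184061 to 91202834, minus strand) had 67.2, 79.1, 78.8, 85.4 and 72.7 CPM in cold BAT, against 30.2, 32.4, 33.6, 37.5 and 30.2 CPM in thermoneutral BAT. Every cold library lay far above the thermoneutral ones, and the rise was 2.34-fold (log2 1.22 ± 0.09, edgeR adjusted p = 4.06e-07). Nr1h2, which encodes LXR beta, was at 37.7 ± 1.82 CPM in cold BAT and 41.9 ± 1.48 CPM in thermoneutral BAT and fell by 0.15 (SE 0.06, adjusted p = 0.0363), a call that 7 of 10 fits without 1 library lost (adjusted p up to 0.178, without cold library 5). Abcg1, which exports cholesterol to lipoprotein particles, had 13.5, 27.6, 23.3, 14.5 and 20.3 CPM in cold BAT, against 10.8, 10.7, 9.0, 10.6 and 9.54 CPM in thermoneutral BAT, and rose 1.96-fold (log2 0.97 ± 0.18, edgeR adjusted p = 0.000725). Abca1, which exports cholesterol to apolipoprotein A-I, was at 110 ± 26.7 CPM in cold BAT and 93.3 ± 26.2 CPM in thermoneutral BAT (log2 0.23 ± 0.23, adjusted p = 0.391). Macrophages also express these exporters, and 8 macrophage markers summed to 51.2 to 295 CPM in cold BAT and 110 to 158 CPM in thermoneutral BAT, none at 0, with 1 of 8 higher; their part was not tested.

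Of the carriers, Npc2, the soluble lysosomal protein that hands cholesterol to NPC1, had 108, 186, 157, 150 and 119 CPM in cold BAT, against 329, 277, 285, 280 and 305 CPM in thermoneutral BAT. The highest cold library lay well under the lowest thermoneutral one, and Npc2 fell by 1.04 (SE 0.14, edgeR adjusted p = 4.52e-05). Its membrane partner Npc1 was at 55.6 ± 8.04 CPM in cold BAT and 52.9 ± 4.24 CPM in thermoneutral BAT (log2 0.07, adjusted p = 0.549). Stard4, a cytosolic sterol carrier, rose by 0.45 ± 0.16 (12.8 ± 3.42 CPM in cold BAT and 9.37 ± 1.07 CPM in thermoneutral BAT, adjusted p = 0.0312), a call lost in 6 of 10 fits without 1 library (adjusted p up to 0.0705, without thermoneutral library 5). Soat1, which makes cholesteryl ester, was at 2.17 ± 1.29 CPM in cold BAT and 2.54 ± 0.46 CPM in thermoneutral BAT (adjusted p = 0.561), but passed as lower without cold library 2 (log2 -0.62, adjusted p = 0.019). That library had the highest Soat1 level (4.38 CPM) and the highest sum of macrophage markers (295 CPM) in cold BAT. The part of the macrophage markers was not tested. Groups did not overlap for 10 of the 31 tested members, where 46.4% of all tested genes did not overlap.

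iWAT showed fewer changes, and the enzymes that passed the test fell. Srebf2, Stard4, Fdft1 and Dhcr7 fell and Nr1h3 and Abca1 rose, so 2 of 31 tested members were higher and 4 lower (19.4%, against 11.5% of all tested genes, 7.2% higher and 4.29% lower). Of the 18 enzymes 2 fell and 0 rose, 16 had a negative log2 change, and their median was -0.5, against -0.05 over all genes. Summed over the enzymes, however, cold iWAT had 1020 ± 241 CPM and thermoneutral iWAT 999 ± 280 CPM. Of all called genes in iWAT 62.7% were higher, and 46.1% with library totals as the only scaling. Groups did not overlap for 4 members, where 11.3% of all genes did not overlap.

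Srebf2 in iWAT had 45.3, 43.0, 42.9, 66.9 and 55.6 CPM in the cold, against 125, 80.8, 87.4, 80.3 and 104 CPM at thermoneutrality. All cold libraries were below all thermoneutral ones, and Srebf2 fell by 0.91 (SE 0.17, edgeR adjusted p = 0.0104), the opposite direction to BAT. Stard4 had 12.5, 9.71, 9.48, 13.5 and 13.1 CPM in cold iWAT, against 17.2, 17.5, 20.3, 21.3 and 17.8 CPM in thermoneutral iWAT, also without overlap, and fell by 0.69 (SE 0.13, adjusted p = 0.0103). Fdft1 had 32.4, 36.6, 26.2, 45.5 and 66.6 CPM in cold iWAT, against 63.9, 96.6, 92.4, 79.5 and 67.9 CPM in thermoneutral iWAT. The overlap came from cold library 5, and Fdft1 fell by 0.95 (SE 0.24, edgeR adjusted p = 0.0314), lost in 6 of 10 fits without 1 library (adjusted p up to 0.0808, without cold library 1). Dhcr7 had 12.3, 13.9, 13.8, 15.9 and 22.0 CPM in cold iWAT, against 27.5, 30.7, 33.4, 28.1 and 16 CPM in thermoneutral iWAT. Here 1 library of each group lay inside the other's range, and Dhcr7 fell by 0.80 (SE 0.21, adjusted p = 0.0376), lost in 7 of 10 such fits (adjusted p up to 0.0927, without cold library 1).

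The 2 iWAT enzymes with a positive log2 change, Hsd17b7 and Hmgcs1, did not pass the test. Hsd17b7 was at 17.7 ± 6.29 CPM in cold iWAT and 12.9 ± 4.32 CPM in thermoneutral iWAT (log2 0.45 ± 0.29, edgeR adjusted p = 0.324). Hmgcs1 had 693, 347, 352, 127 and 361 CPM in cold iWAT, against 93.7, 168, 246, 203 and 76.9 CPM in thermoneutral iWAT. In 4 of 5 cold libraries it was above every thermoneutral library, yet the log2 change of 1.25 ± 0.44 did not pass (edgeR adjusted p = 0.0927), and it did without cold library 4, the low one (1.48, adjusted p = 0.0315). Idi1 was at 45.4 ± 17.4 CPM in cold iWAT and 64.7 ± 12.3 CPM in thermoneutral iWAT (log2 -0.51, adjusted p = 0.19, and -0.77, adjusted p = 0.0361 without cold library 5). Sqle was at 18.9 ± 9.13 CPM in cold iWAT and 28.9 ± 9.92 CPM in thermoneutral iWAT (log2 -0.62 ± 0.34, adjusted p = 0.251), and Fdps had a log2 change of -0.97 (adjusted p = 0.0532). As in BAT, enzymes moved together between libraries: thermoneutral library 5 was the lowest of its group for 17 of 18 enzymes and cold library 5 the highest of its group for 14. Without thermoneutral library 5 Fdps, Lss, Mvk and Nsdhl also passed as lower (adjusted p = 0.026, 0.0371, 0.044 and 0.0415), without cold library 5 Fdps did (0.0309), and without cold library 4 Tm7sf2 did (0.0408).

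Nr1h3 in iWAT had 167, 152, 118, 120 and 144 CPM in the cold, against 65.9, 80.8, 86.0, 79.3 and 55.5 CPM at thermoneutrality. Its groups were apart and it rose 1.91-fold (log2 0.93 ± 0.15, edgeR adjusted p = 0.00594). Abca1 had 419, 429, 417, 362 and 352 CPM in cold iWAT, against 216, 198, 282, 308 and 228 CPM in thermoneutral iWAT, again apart, and rose by 0.68 ± 0.14 (adjusted p = 0.0154). Abcg1 was at 86.6 ± 30.4 CPM in cold iWAT and 48.3 ± 13.9 CPM in thermoneutral iWAT and missed the threshold (log2 0.84 ± 0.26, adjusted p = 0.0601), passing without thermoneutral library 1 (0.0335) or cold library 5 (0.0493). Insig1 was at 252 ± 82.8 CPM in cold iWAT and 291 ± 115 CPM in thermoneutral iWAT (log2 -0.21, adjusted p = 0.682). Insig2 was at 57.6 ± 10.7 CPM in the cold and 44.7 ± 5.72 CPM at thermoneutrality (log2 0.37, adjusted p = 0.116, and 0.45, adjusted p = 0.0414 without cold library 4, when Npc1 also passed at 0.37, adjusted p = 0.0474). Scap (log2 0.05), Mylip (0.29) and Nr1h2 (-0.16) did not pass. The 9 lymphocyte markers summed to 3.44 to 482 CPM in cold iWAT and 73.6 to 932 CPM in thermoneutral iWAT, 8 macrophage markers to 543 to 2330 CPM in the cold and 848 to 1480 CPM at thermoneutrality, and 4 brown adipocyte markers to 150 to 1610 CPM in the cold and 51.6 to 98.5 CPM at thermoneutrality, with no marker at 0 throughout; their part was not tested. The skeletal muscle genes, none at 0 throughout, reached 13600 CPM in thermoneutral iWAT library 3, and without that library Fdft1 and Dhcr7 were no longer called (adjusted p = 0.0643 and 0.0768). With the lymphocyte mean as a covariate Fdft1 and Dhcr7 were no longer called (adjusted p = 0.0742 and 0.095).

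**Figure D3:**
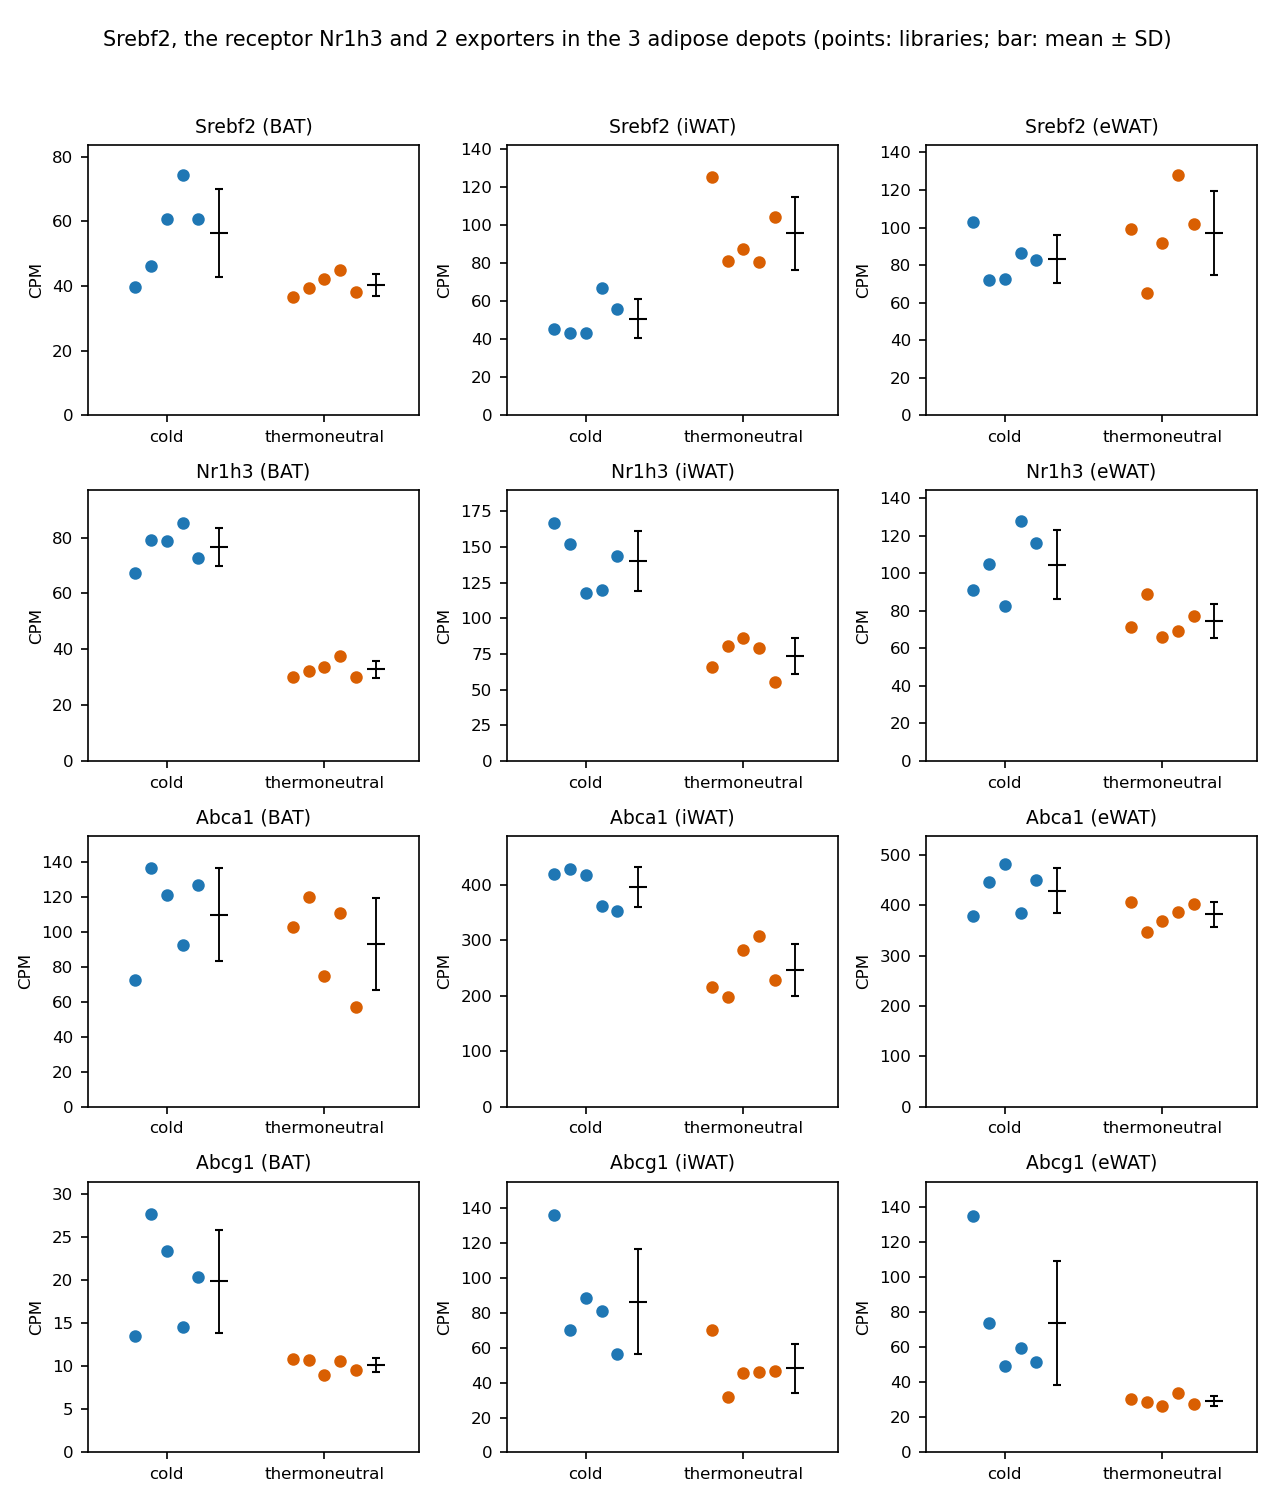
CPM (vertical axis) of Srebf2, Nr1h3, Abca1 and Abcg1 (rows) in BAT, iWAT and eWAT (columns), 5 cold libraries (left, blue) and 5 thermoneutral ones (right, orange), 1 point per library with mean and SD. Srebf2 is higher in cold BAT and lower in cold iWAT, Nr1h3 is higher in the cold without overlap in BAT and iWAT, and 1 cold eWAT library reaches 135 CPM of Abcg1.

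In eWAT 4 members changed. Abcg1 rose and Idi1, Nsdhl and Mvk fell, so 1 of 34 members was higher and 3 lower (11.8%, against 3.78% of all tested genes, 1.77% higher and 2.0% lower). As in iWAT, 16 of the 18 enzymes had a negative log2 change, with a median of -0.36 against -0.05 over all genes, and 3 fell while 0 rose. These counts depended on the method: DESeq2 called 5 members higher and 7 lower, where it called 11.4% of all genes in either direction. The model of 8 group means called 2 higher and 0 lower, with none of the 3 enzymes called (adjusted p = 0.414 for Idi1, 0.279 for Nsdhl and 0.302 for Mvk). The share of all genes called in that model is not given here. Groups did not overlap for 5 members, where 7.5% of all genes did not overlap.

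Idi1 in eWAT had 32.5, 30.9, 34.6, 40.3 and 38.1 CPM in the cold, against 58.1, 67.5, 60.2, 61.7 and 44.6 CPM at thermoneutrality. It was lower in every cold library, and it fell by 0.73 (SE 0.12, edgeR adjusted p = 0.0139). Mvk, mevalonate kinase, had 14.6, 18.4, 16.1, 18.5 and 21.0 CPM in cold eWAT, against 28.0, 27.6, 24.0, 26.5 and 25.7 CPM in thermoneutral eWAT, without overlap, and fell by 0.57 (SE 0.10, adjusted p = 0.0186). Its call was lost without thermoneutral library 1, 2 or 4 or cold library 3 (adjusted p = 0.0503, 0.0508, 0.0596 and 0.05). Nsdhl, the C4-demethylating dehydrogenase, had 27.4, 34.6, 42.1, 37.9 and 31.8 CPM in cold eWAT, against 57.6, 49.6, 49.6, 73.0 and 45.8 CPM in thermoneutral eWAT. It too did not overlap and fell by 0.67 (SE 0.15, adjusted p = 0.0421), but every fit without 1 library lost the call (adjusted p 0.0524 to 0.115). Sqle was at 26.8 ± 4.97 CPM in cold eWAT and 36.8 ± 8.78 CPM in thermoneutral eWAT (log2 -0.46, adjusted p = 0.25), and Hmgcs1 at 229 ± 31.8 CPM in the cold and 195 ± 60.1 CPM at thermoneutrality (log2 0.23, adjusted p = 0.651).

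Abcg1 in eWAT had 135, 73.6, 49.4, 59.6 and 51.6 CPM in the cold, against 30.3, 28.6, 26.3, 34.1 and 27.6 CPM at thermoneutrality. All cold libraries were above all thermoneutral ones, and Abcg1 rose 2.51-fold (log2 1.33 ± 0.27, edgeR adjusted p = 0.0286), a call that 7 of 10 fits without 1 library lost (adjusted p up to 0.0745, without thermoneutral library 5). The epididymis can be cut with this depot, and 5 epididymal markers summed to 3090, 1.24, 0.393, 1120 and 36.3 CPM in cold eWAT, against 0.716, 2.15, 46.1, 6.96 and 6.57 CPM in thermoneutral eWAT. Cold libraries 1 and 4 had the most, and cold library 1 was the one of highest Abcg1. Without both, a choice made after seeing the data, the log2 change of Abcg1 was 1.02 ± 0.14 (adjusted p = 0.031), and Idi1, Mvk and Nsdhl were not called (adjusted p = 0.071, 0.0909 and 0.155). Liver RNA is far richer in these enzymes, and the hepatocyte markers, none at 0 throughout, summed to 143, 22.2, 926, 9.7 and 86.7 CPM in cold eWAT, against 43.5, 2940, 105, 138 and 9 CPM in thermoneutral eWAT. Without the 2 libraries of most hepatocyte markers, cold 3 and thermoneutral 2, likewise chosen after seeing the data, Idi1 was called (log2 -0.66, adjusted p = 0.0469) and Abcg1 (1.43, adjusted p = 0.0549), Nsdhl (adjusted p = 0.0547) and Mvk (adjusted p = 0.0652) were not, while Nr1h3 (0.63, adjusted p = 0.0367) and Insig2 (0.61, adjusted p = 0.0455) were. The part of either tissue in these values was not tested. Abca1 was at 429 ± 44.9 CPM in cold eWAT and 382 ± 25.4 CPM in thermoneutral eWAT (log2 0.17, adjusted p = 0.347), and Nr1h3 at 105 ± 18.5 CPM in the cold and 74.6 ± 8.98 CPM at thermoneutrality (log2 0.49 ± 0.13, adjusted p = 0.0697, and 0.043 without cold library 3).

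The eWAT regulators did not pass the test. Srebf2 was at 83.3 ± 12.6 CPM in cold eWAT and 97.3 ± 22.6 CPM in thermoneutral eWAT (log2 -0.22, adjusted p = 0.558). Insig1 was at 94.9 ± 28.7 CPM in the cold and 175 ± 53.3 CPM at thermoneutrality (log2 -0.89, adjusted p = 0.0986). Insig2 was at 77.6 ± 12.7 CPM in the cold and 56.6 ± 8.98 CPM at thermoneutrality (log2 0.45, adjusted p = 0.0981, and 0.0419 without thermoneutral library 2). Scap had a log2 change of 0.14, Mylip of 0.55 (adjusted p = 0.111), Nr1h2 of 0.0 and Npc1 of 0.36 (adjusted p = 0.0802, groups apart). The lymphocyte markers summed to 7.82 to 29.0 CPM in cold eWAT and 26.3 to 71.8 CPM in thermoneutral eWAT, none at 0 throughout. With their mean as a covariate 0 genes of the tissue were called; their part was not tested.

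In liver 0 of 34 members passed the test, where 1.66% of all tested genes were called (1.01% higher and 0.65% lower). The members nonetheless spread more than other genes: their median absolute log2 change was 0.63, against 0.27 over all genes. An unadjusted p under 0.05 was held by 15 members. The share of all genes at that level is not given here, so this count does not compare members with other genes. The 18 enzymes had a median log2 change of 0.39, 12 positive and 6 negative, and all 4 efflux transporters were negative with a median of -1.0. Groups did not overlap for 2 members, Npc2 and Nr1h3 (5.45% of all genes did not overlap). Of all called liver genes 60.8% were higher, 31.2% with library totals as the only scaling and 48.6% by DESeq2, which called 2 members higher and 5 lower (11.3% of all genes).

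The libraries of cold liver differed widely among themselves. Msmo1 had 355, 215, 538, 904 and 144 CPM in cold liver, against 176, 128, 181, 236 and 194 CPM in thermoneutral liver (log2 1.24 ± 0.42, edgeR adjusted p = 0.113). Hsd17b7 had 166, 112, 192, 362 and 48.1 CPM in cold liver, against 67.6, 61.4, 84.6, 78.1 and 67.8 CPM in thermoneutral liver (log2 1.29 ± 0.41, adjusted p = 0.0961). In both genes cold libraries 1, 3 and 4 exceeded all thermoneutral ones and cold library 5 was below or near the lowest. Hmgcs1 had 616, 298, 1790, 1710 and 324 CPM in cold liver, against 600, 444, 609, 710 and 560 CPM in thermoneutral liver (log2 0.70 ± 0.49, adjusted p = 0.391). Idi1 had 386, 213, 787, 914 and 194 CPM in cold liver, against 314, 234, 276, 279 and 321 CPM in thermoneutral liver (log2 0.81, adjusted p = 0.233). Sqle had 212, 120, 246, 350 and 59.5 CPM in cold liver, against 120, 95.3, 130, 149 and 92.1 CPM in thermoneutral liver (log2 0.75, adjusted p = 0.243). For each of these 3, cold libraries 3 and 4 were high and cold libraries 2 and 5 low. Cold library 3, the highest in Hmgcs1 and the lowest in Scap and Nr1h2 (55.2 and 14.9 CPM), had 21.94% of its counts on mitochondrial genes, against 5.13% to 8.6% in the other 9 liver libraries. Its part was not tested, and without it 0 members and 3 genes in all passed the test. Summed over the enzymes, cold liver had 3890, 2340, 6950, 8180 and 2540 CPM, against 3840, 2920, 4050, 4570 and 3670 CPM in thermoneutral liver. The median coefficient of variation of an enzyme was 59.2% in cold liver and 16.2% in thermoneutral liver, against 25.3% in cold and 16.5% in thermoneutral liver over all tested genes.

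The 4 exporters and Soat2 showed a different library pattern, with cold library 5 the highest of the cold group. Abcg8 and Abcg5, the partners of the transporter that moves sterol into bile, lie head to head on chromosome 17 and share 82 exon bases. Abcg8 had 26.9, 32.9, 30.0, 33.0 and 118 CPM in cold liver, against 87.1, 69.0, 126, 111 and 125 CPM in thermoneutral liver (log2 -1.11 ± 0.41, edgeR adjusted p = 0.134). Abcg5 had 26.8, 35.7, 20.7, 22.9 and 65.0 CPM in cold liver, against 58.4, 48.0, 78.0, 65.7 and 67.6 CPM in thermoneutral liver (log2 -0.89 ± 0.29, adjusted p = 0.0954). In both, cold libraries 1 to 4 were below every thermoneutral library and cold library 5 lay within the thermoneutral range. Soat2, the acyltransferase of hepatocytes, had 20.3, 14.6, 12.7, 18.7 and 37.0 CPM in cold liver, against 27.3, 34.2, 35.1, 33.8 and 36.3 CPM in thermoneutral liver (log2 -0.69 ± 0.25, adjusted p = 0.123). Abcg1 had 2.65, 1.66, 1.08, 2.22 and 5.18 CPM in cold liver, against 7.09, 5.14, 7.56, 4.43 and 5.6 CPM in thermoneutral liver (log2 -1.21 ± 0.35, adjusted p = 0.0752). Abca1 had 71.8, 77.5, 86.3, 123 and 145 CPM in cold liver, against 198, 134, 210, 151 and 119 CPM in thermoneutral liver (log2 -0.69 ± 0.23, adjusted p = 0.1). Soat1, the other ester-forming enzyme, did not share it, with 1.94, 1.89, 1.49, 1.79 and 1.73 CPM in cold liver, against 3.78, 2.81, 4.64, 1.7 and 1.87 CPM in thermoneutral liver (log2 -0.74 ± 0.28, adjusted p = 0.129). The lymphocyte markers summed to 2.64 to 8.25 CPM in cold liver and 12.7 to 95.8 CPM in thermoneutral liver. Of 8 tested, 1 was lower and 0 higher. The lower one, Cd3d, averaged 0.0684 ± 0.0475 CPM in the cold and 47.2 ± 40.2 CPM at thermoneutrality and made up much of the thermoneutral sum. Cd4 had the opposite sign and was not called (2.8 ± 2.68 CPM in the cold and 1.2 ± 0.321 CPM at thermoneutrality). The macrophage markers summed to 55.2 to 123 CPM in the cold and 87.7 to 233 CPM at thermoneutrality. No marker of either list was at 0 throughout, and their part was not tested.

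Scap in liver had 91.9, 123, 55.2, 127 and 206 CPM in the cold, against 212, 139, 214, 218 and 206 CPM at thermoneutrality (log2 -0.71 ± 0.28, edgeR adjusted p = 0.148). Srebf2 had 99.5, 73.8, 70.3, 143 and 58.8 CPM in cold liver, against 62.7, 54.7, 62.8, 57.5 and 60.2 CPM in thermoneutral liver (log2 0.58 ± 0.21, adjusted p = 0.123). The sterol sensor and its cargo thus had opposite signs, and in both cold library 5 lay within the thermoneutral range. Insig1 was at 328 ± 145 CPM in cold liver and 508 ± 160 CPM in thermoneutral liver (log2 -0.63, adjusted p = 0.235), and Insig2 at 240 ± 97.7 CPM in the cold and 154 ± 41.8 CPM at thermoneutrality (log2 0.63, adjusted p = 0.194). Nr1h3 was at 71.7 ± 7.9 CPM in cold liver and 61.7 ± 2.55 CPM in thermoneutral liver (log2 0.22, adjusted p = 0.242), and Nr1h2 and Mylip had log2 changes of -0.19 and -0.05.

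Over all 14472 genes tested in liver, cold liver library 5 differed from the thermoneutral mean by a root mean square log2 distance of 0.3. From the mean of the other cold libraries it differed by 0.504. The other 4 cold libraries differed by 0.503 to 0.649 from the thermoneutral mean and by 0.302 to 0.49 from the mean of the other cold libraries. Of the 34 members, 16 lay within the thermoneutral range in cold library 5, against 4 to 9 in each other cold library. Cold library 5 was singled out by its values in these data, the members included. The values without it are therefore a description and no test of the members. Without it 5 members were past the threshold as higher and 7 as lower, and so were 16.2% of all genes in either direction; without any other single liver library 0 members were. The log2 difference without it was 1.53 for Hsd17b7, 1.46 for Msmo1, 0.98 for Sqle, 0.92 for Mvk and 0.70 for Srebf2. It was -1.76 for Abcg8, -1.64 for Abcg1, -1.26 for Abcg5, -1.01 for Soat2, -1.0 for Scap, -0.86 for Abca1 and -0.50 for Npc2. Without both cold libraries 4 and 5, whose names fall outside the sequence of the others, 3 members were higher and 7 lower (12.4% of all genes were called).

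**Figure D4:**
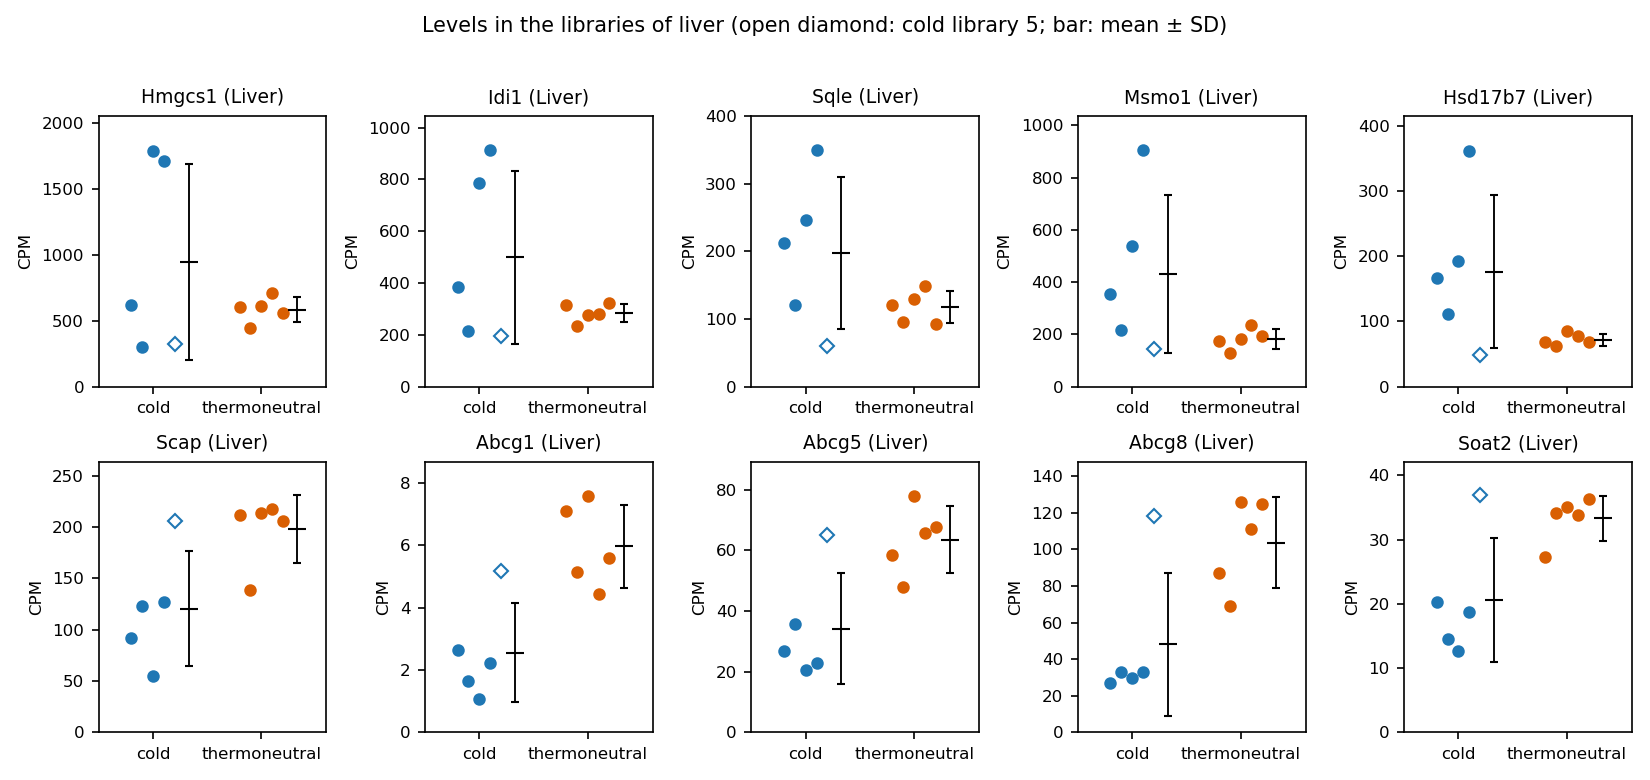
CPM (vertical axis) of 10 members in the 5 cold (left, blue) and 5 thermoneutral (right, orange) liver libraries, 1 point per library with mean and SD; cold library 5 is the open diamond. It lies low among the cold libraries for Hmgcs1, Idi1, Sqle, Msmo1 and Hsd17b7 and highest for Scap, Abcg1, Abcg5, Abcg8 and Soat2, where the other 4 cold libraries mostly lie under the thermoneutral ones.

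The cold effect was then compared between tissues by interaction contrasts in a model of 8 group means over all 40 libraries and 20756 genes. The contrasts share groups, so each is given by its own values. Between iWAT and BAT 2 members had a higher and 6 a lower effect in iWAT (18.9% of all genes were called, 10.6% higher and 8.27% lower). Srebf2 differed by -1.32 ± 0.27 (log2 -0.87 in iWAT and 0.46 in BAT, edgeR adjusted p = 0.000403), Hsd17b7 by -2.48 ± 0.53 (0.48 in iWAT and 2.97 in BAT, adjusted p = 0.000813) and Sqle by -2.22 ± 0.53 (-0.58 in iWAT and 1.63 in BAT, adjusted p = 0.00248). Between eWAT and BAT 2 were higher and 5 lower (23.0% of all genes, 11.5% in each direction), led by Hsd17b7 with -3.18 ± 0.53 (-0.21 in eWAT and 2.97 in BAT, adjusted p = 2.79e-05), Fdft1 with 1.99 ± 0.46 (-0.35 in eWAT and -2.34 in BAT, adjusted p = 0.00132) and Sqle with -2.08 ± 0.53 (-0.44 in eWAT and 1.63 in BAT, adjusted p = 0.00337). Of the 3 enzymes between lanosterol and cholesterol that rose in BAT, Hsd17b7 thus differed from both white depots. Msmo1 differed between eWAT and BAT (-1.33 ± 0.47, -0.19 in eWAT and 1.14 in BAT, adjusted p = 0.036) but did not pass between iWAT and BAT (-1.11 ± 0.47, 0.03 in iWAT and 1.14 in BAT, adjusted p = 0.0982), and Cyp51 passed in neither (adjusted p = 0.143 for eWAT and 0.155 for iWAT). Of all called genes 56.2% had a higher effect in iWAT than in BAT, and 37.0% with library totals as the only scaling. Between eWAT and iWAT 0 members passed by edgeR (0.159% of all genes were called, 27.3% of them higher in eWAT, and 48.0% by DESeq2). An unadjusted p under 0.05 was held by 2 members, a level at which the share of all genes is not given here.

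Of the 4 exporters, Abcg1 and Abca1 differed between liver and each fat depot. Abcg1 had a lower cold effect in liver than in BAT (-2.21 ± 0.42, log2 -1.27 in liver and 0.94 in BAT, edgeR adjusted p = 0.000127). It was also lower than in iWAT (-2.16 ± 0.42, -1.27 in liver and 0.88 in iWAT, adjusted p = 0.00129) and than in eWAT (-2.61 ± 0.42, -1.27 in liver and 1.34 in eWAT, adjusted p = 0.000371). Abca1 differed between liver and iWAT by -1.49 ± 0.28 (-0.77 in liver and 0.72 in iWAT, adjusted p = 0.000813). Between liver and BAT it differed by -0.98 ± 0.28 (-0.77 in liver and 0.21 in BAT, adjusted p = 0.00746). Between liver and eWAT it differed by -0.96 ± 0.28 (-0.77 in liver and 0.19 in eWAT, adjusted p = 0.0492). Abcg5 and Abcg8, near 0 CPM in fat, passed in no contrast with liver (adjusted p 0.672 to 1). Srebf2 differed in the other direction, by 1.36 ± 0.27 between liver and iWAT (0.49 in liver and -0.87 in iWAT, adjusted p = 0.00147). Against BAT, liver also differed for Fdft1 by 2.91 ± 0.46 (0.57 in liver and -2.34 in BAT, adjusted p = 1.19e-05) and for Nr1h3 by -1.07 ± 0.18 (0.13 in liver and 1.2 in BAT, adjusted p = 1.83e-05). Against eWAT it differed for Scap by -0.94 ± 0.26 (-0.79 in liver and 0.15 in eWAT, adjusted p = 0.0396) and for Mvk by 1.21 ± 0.34 (0.66 in liver and -0.55 in eWAT, adjusted p = 0.045). Scap also differed between liver and BAT, by -1.17 ± 0.26 (-0.79 in liver and 0.38 in BAT, adjusted p = 0.000883). In all, liver had 1 member higher and 6 lower against BAT (24.1% of all genes called, 9.94% higher and 14.2% lower), 3 and 4 against iWAT (6.35%, 1.34% and 5.0%) and 1 and 3 against eWAT (2.74%, 0.713% and 2.03%). Of the called genes 21.2% had a higher effect in liver than in iWAT and 26.0% than in eWAT, and 39.5% and 36.1% with RLE size factors in place of TMM. The joined table touches every contrast with liver, and without cold liver library 5, chosen after its values were seen, the difference in Abcg1 was -2.66, -3.06 and -2.61 against BAT, eWAT and iWAT, while 4 members in place of 1 were higher against eWAT. With replicate 1, 2, 3 or 4 of every group left out, Scap and Mvk no longer passed the test between liver and eWAT (adjusted p 0.118 to 0.33).

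The level of the pathway was far higher in liver than in fat. Levels are given as CPM per kilobase of exon, counting all annotated exon bases of a gene. A gene whose expressed transcripts cover only part of these bases is understated, so orders between genes are approximate. In cold liver Hmgcs1 led with 320 ± 244, ahead of Idi1 with 221 and Insig1 with 166, and in thermoneutral liver Insig1 with 274, Sc5d with 273 and Hmgcs1 with 213. In cold BAT Hmgcs1 led with 84.4, ahead of Insig1 with 61.6 and Acat2 with 52.8, and in thermoneutral BAT Insig1 with 134, Acat2 with 72.3 and Npc2 with 68.5. Cold iWAT had Hmgcs1 and Insig1 at 62.0 each and Npc2 at 58.8, and thermoneutral iWAT had Npc2 at 70.3, Insig1 at 70.1 and Acat2 at 32.1. In eWAT the carrier Npc2 led in both exposures, with 42.6 in the cold and 45.3 at thermoneutrality. At least 10 CPM per kilobase was reached by 31 members in liver in either exposure, by 15 in cold and 12 in thermoneutral BAT, by 11 in cold and 14 in thermoneutral iWAT and by 11 in cold and 13 in thermoneutral eWAT.

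**Figure D5:**
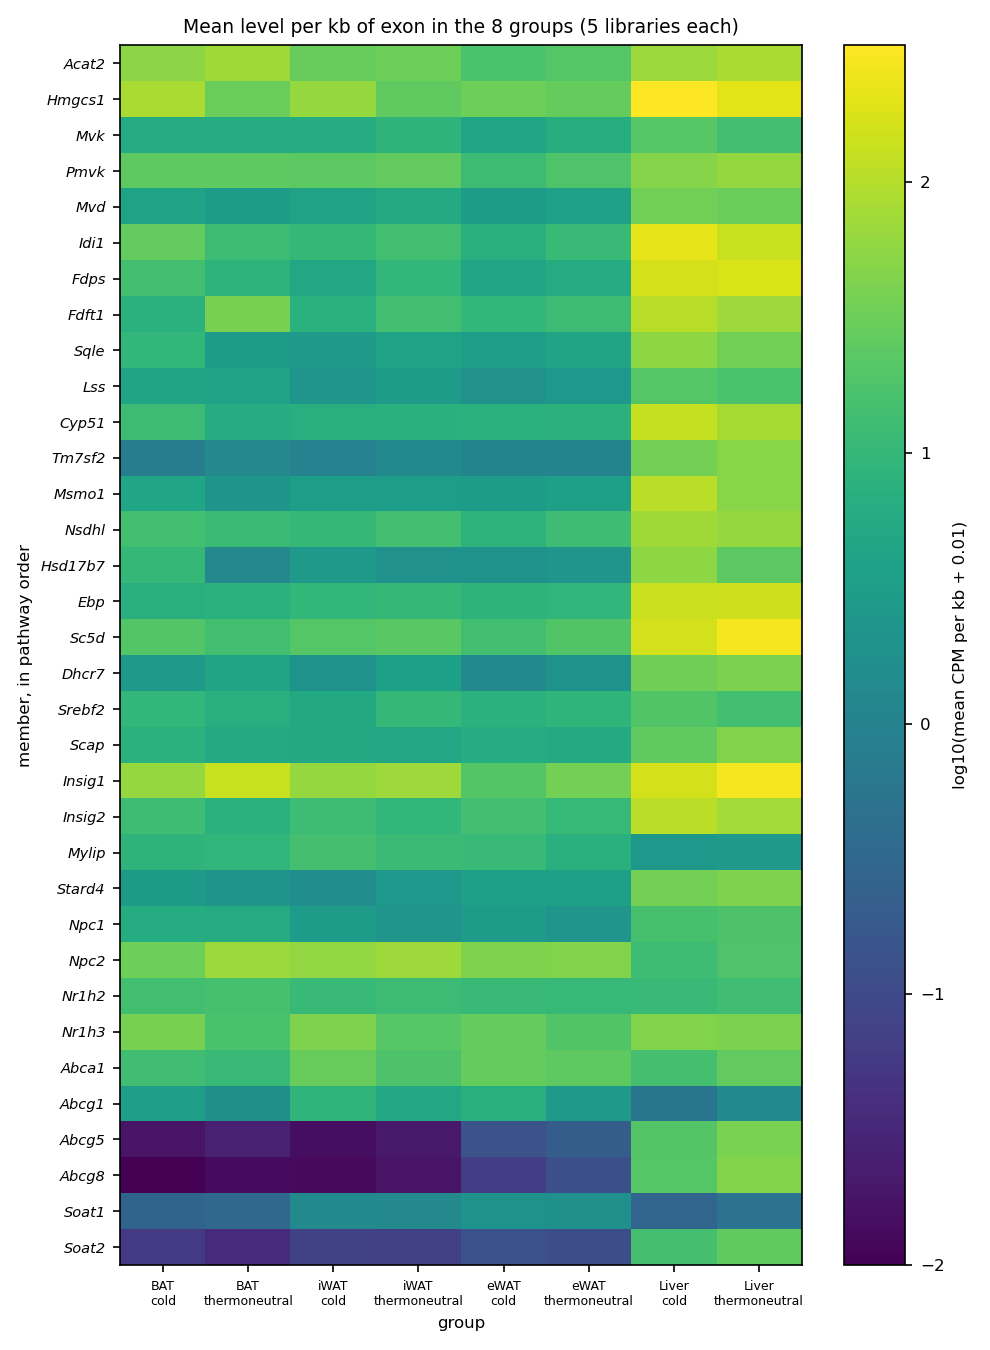
Mean level of the 34 members (rows, by role) in the 8 groups (columns, cold left of thermoneutral in each tissue), as a colour for log10 of CPM per kilobase of exon plus 0.01. Liver has the highest level of nearly all enzymes, and Abcg5, Abcg8 and Soat2 are near 0 outside liver.

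Liver exceeded the mean of the 3 fat depots for 28 members in the cold and 29 at thermoneutrality and was below it for 5 and 4, by edgeR's test in the 8-group model (69.2% and 71.0% of all genes were called, 29.9% and 32.4% as higher, 39.3% and 38.6% as lower). The median difference of the members was 3.02 in the cold and 2.89 at thermoneutrality on the log2 scale, against -0.35 and -0.29 over all genes. Abcg5 (10.18 in the cold and 10.22 at thermoneutrality) and Soat2 (7.63 in the cold and 8.84 at thermoneutrality) were near 0 CPM in fat, and Ebp, the sterol isomerase, differed by 4.09 in the cold and 4.03 at thermoneutrality. Members lower in liver than in fat were Npc2 (-1.76 in the cold and -1.72 at thermoneutrality), Mylip (-2.16 in the cold and -1.77 at thermoneutrality), Abcg1 (-3.37 in the cold and -1.05 at thermoneutrality) and Soat1 (-1.70 in the cold and -0.87 at thermoneutrality). Abca1 was lower in liver in the cold (-0.51) and higher at thermoneutrality (0.64), and Nr1h2 was not called in either. With library totals as the only scaling the median of all genes moved to -1.28 in the cold and -1.19 at thermoneutrality, the share of calls that were higher to 16.2% and 17.8% in place of 43.2% and 45.6%, and the signs of Nr1h3 in the cold and of Srebf2 and Abca1 at thermoneutrality turned.

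BAT changed its place beside the white depots with the cold. Against the mean of iWAT and eWAT, cold BAT had 16 members higher and 6 lower (67.4% of all genes called, 26.0% higher and 41.4% lower), and thermoneutral BAT had 6 higher and 11 lower (59.6%, 24.8% higher and 34.8% lower). Hsd17b7 was 2.15 higher on the log2 scale in cold BAT and not called in thermoneutral BAT (-0.68), and Sqle 1.73 higher in cold BAT and not called in thermoneutral BAT (-0.42). For Fdft1 it was the reverse, not called in cold BAT (-0.17) and 1.54 higher in thermoneutral BAT. Npc1 (1.06 in the cold and 1.38 at thermoneutrality) and Acat2 (1.27 in the cold and 1.48 at thermoneutrality) were higher in BAT in both exposures, and Soat1 (-2.63 in the cold and -2.24 at thermoneutrality), Abca1 (-1.10 in the cold and -0.86 at thermoneutrality) and Abcg1 (-1.20 in the cold and -1.03 at thermoneutrality) lower. With library totals as the only scaling the medians over all genes were -1.15 in the cold and -1.07 at thermoneutrality in place of -0.37 and -0.2, the share of higher calls was 12.6% and 8.76% in place of 38.6% and 41.6%, 5 members were higher and 17 lower in the cold and 3 and 28 at thermoneutrality.

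Other genes of the pathway were read from a list of 33 more symbols. In BAT 15 of 31 tested were higher and 12 lower, where 60.2% of all tested genes were called (30.2% higher and 30.0% lower). Of 6 genes for SREBP processing and decay, 4 rose and 0 fell, among them the ubiquitin ligase Rnf139 (34.8 ± 1.26 CPM in cold BAT and 23.0 ± 0.94 CPM in thermoneutral BAT, log2 0.60 ± 0.06, edgeR adjusted p = 3.78e-06). Of 10 for sterol transport and ester hydrolysis, 7 rose and 3 fell. The largest was Gramd1b, a bridge protein that moves plasma membrane cholesterol to the endoplasmic reticulum, with 101 ± 12.0 CPM in cold BAT and 12.5 ± 3.69 CPM in thermoneutral BAT (8.09-fold, log2 3.02 ± 0.19, adjusted p = 3.04e-07). The carrier Stard5 rose by 1.55 and the ester hydrolases Nceh1 by 1.52 and Lipa by 0.94, whereas Gramd1a fell by 0.64. Of 3 uptake genes, the lipoprotein receptor Vldlr rose by 0.95 and Lrp1 and its chaperone Lrpap1 fell by 0.72 and 0.79. Among 6 tested LXR targets and oxysterol enzymes 2 rose and 3 fell. The phospholipid acyltransferase Lpcat3 rose by 0.64 and Smpdl3a by 0.4. The sterol 27-hydroxylase Cyp27a1 (log2 -1.03), Pltp (log2 -0.56) and Srebf1 (log2 -0.55) fell. Of 6 other sterol and isoprenoid enzymes 1 rose and 4 fell, Aacs, which activates acetoacetate for synthesis, by 1.11.

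In iWAT 3 of 32 tested genes of that list were higher and 0 lower, where 11.5% of all tested genes were called (7.2% higher and 4.29% lower). Gramd1b again changed most, with 173 ± 32.6 CPM in cold iWAT and 34.3 ± 4.89 CPM in thermoneutral iWAT (5.04-fold, log2 2.33 ± 0.15, edgeR adjusted p = 0.000211), and Lpcat3 (0.64) and Stard5 (0.53) rose too. In eWAT 0 of 32 passed by edgeR, where 3.78% of all genes were called. An unadjusted p under 0.05 was held by 10, a level at which the share of all genes is not given here. In liver 0 of 31 were higher and 1 lower, where 1.66% of all genes were called: Lpcat3, at 57.8 ± 19.5 CPM in cold liver and 107 ± 12.2 CPM in thermoneutral liver (log2 -0.89 ± 0.19, adjusted p = 0.0468).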

How the data were processed

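The authors deposited expected counts per gene symbol, raw estimates without normalization that were already whole numbers. Per the submitters' processing notes FastQC, STAR 2.7.8a, RSEM 1.3.0 and DESeq were used with the builds GRCm39 and GRCm38; which build gave the counts is not given in the sources used here. Per the labels' protocols libraries were made with a TruSeq RNA v2 kit. The table's 260093 lines were a join by symbol of 2 tables and were reduced to 53863 symbols, 78 repeated ones being summed. Totals of 46508261 to 86681722 counts per library make counting error small beside the spread between libraries, except for Abcg5, Abcg8 and Soat2 in fat.

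Cold was compared with thermoneutral per tissue in R 4.3.3 with edgeR 4.0.16 (robust quasi-likelihood F-test, TMM, filterByExpr with minimum count 10 and minimum total 15), with a threshold of 0.05 on p adjusted over all tested genes (Benjamini-Hochberg). Contrasts between tissues used 1 model of 8 group means. SE is the absolute log2 change over the root of F. CPM use TMM-scaled library sizes, and exon lengths come from GENCODE M21. Alternatives used other scalings, no filter, limma 3.58.1 (voom), DESeq2 1.42.0, a replicate block, marker covariates and left-out libraries. The procedure was tested on simulated data. From the list of other pathway genes 1 gene is not reported here and was left out of its counts. Members, gene lists, markers and motifs were chosen with earlier results of these data known. Named per library were up to 5 called members of largest change per direction with at least 5 CPM, besides a list of regulators, enzymes and transporters in every tissue; liver members given per library beyond that list (Msmo1, Hsd17b7, Abcg5, Abcg8, Soat2) and Acat3, Ctsb and Vps51 were chosen after their values were seen.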

Additional observations from a re-analysis of the deposited data

Results flagged for a closer look

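In 260 groups of 5 libraries, 18 held a library whose gap to the nearest of the others took over 0.71 of the group's range, and chance flags about 1 in 20 such groups. In BAT these were cold library 4 for Fdps (98.0 CPM), Sqle (87.5 CPM) and Msmo1 (43.9 CPM), thermoneutral library 2 for Scap (36.5 CPM) and thermoneutral library 5 for Soat1 (3.33 CPM). In iWAT it was cold library 5 for Sqle (34.8 CPM). In eWAT these were cold library 1 for Abcg1 (135 CPM), cold library 3 for Abcg8 (0.73 CPM) and Soat2 (0.748 CPM), thermoneutral library 5 for Sqle (21.1 CPM), and thermoneutral library 2 for Insig2 (72.3 CPM), Abcg5 (1.54 CPM) and Abcg8 (1.41 CPM). Cold library 3 and thermoneutral library 2 also had the highest hepatocyte markers of their groups (926 and 2940 CPM), whose part was not tested. In liver these were cold library 3 for Tm7sf2 (60.4 CPM), cold library 5 for Abcg8 (118 CPM), and thermoneutral library 2 for Scap (139 CPM), library 3 for Mylip (8.57 CPM) and library 1 for Soat2 (27.3 CPM).

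Named here are only the members of smallest p in each contrast. By the interaction test the cold effect differed between tissues, on the log2 scale, for Fdft1 (2.91), Nr1h3 (-1.07) and Abcg1 (-2.21) between liver and BAT, for Abca1 (-1.49), Abcg1 (-2.16) and Srebf2 (1.36) between liver and iWAT, and for Abcg1 (-2.61), Scap (-0.94) and Mvk (1.21) between liver and eWAT. It differed for Srebf2 (-1.32), Hsd17b7 (-2.48) and Sqle (-2.22) between iWAT and BAT, and for Hsd17b7 (-3.18), Fdft1 (1.99) and Sqle (-2.08) between eWAT and BAT.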

How the results depend on the processing

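In BAT the lymphocyte covariate left 5878 genes called, 6 members higher and 2 lower; fits without 1 library gave 3 to 7 lower. In iWAT library totals gave 7 lower, no filter 1217 genes, DESeq2 3345 genes and 5 higher, the lymphocyte covariate 2 lower and the 8-group model 4 higher; fits without 1 library gave 961 to 2652 genes, 2 to 5 higher and 2 to 7 lower. In eWAT no filter gave 372 genes and 1 lower, DESeq2 2143 genes, 5 higher and 7 lower, the lymphocyte covariate 0 genes, 0 higher and 0 lower, the sequential library names 300 genes, the fit without the 2 libraries of most epididymal markers (chosen after seeing the data, like the next) 173 genes and 0 lower, that without the 2 of most hepatocyte markers 448 genes, 2 higher and 1 lower, and the 8-group model 2 higher and 0 lower; fits without 1 library gave 293 to 519 genes, 0 to 2 higher and 1 to 3 lower. In liver library totals gave 16 genes, DESeq2 1622 genes, 2 higher and 5 lower, limma-voom 1 gene, the lymphocyte covariate 0, the macrophage covariate 4, the sequential library names 1861 genes, 3 higher and 7 lower, and the 8-group model 2562 genes, 2 higher and 5 lower; fits without 1 library gave 0 to 2384 genes, 0 to 5 higher and 0 to 7 lower.

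Between liver and iWAT 1 member was higher without a filter and with limma-voom, and 1 to 5 without 1 replicate of every group. Between liver and eWAT library totals and no filter each gave 0 higher and 1 lower, limma-voom 0 higher, and left-out replicates 0 to 2 higher and 1 to 4 lower; without cold liver library 5, chosen after seeing the data, 4 were higher. Between iWAT and BAT library totals gave 1 higher, and left-out replicates 0 to 2 higher and 3 to 6 lower. For BAT against white fat library totals gave 5 higher and 17 lower in the cold and 3 and 28 at thermoneutrality, and left-out replicates 6 to 13 lower at thermoneutrality. That scaling reversed, in cold liver against fat, Nr1h3 (-0.59); in thermoneutral liver Srebf2 (-0.21) and Abca1 (-0.27); in cold BAT against white fat Pmvk (-0.25), Cyp51 (-0.0), Nsdhl (-0.14), Dhcr7 (-0.13), Srebf2 (-0.21), Scap (-0.41) and Nr1h2 (-0.44); and in thermoneutral BAT Dhcr7 (-0.16) and Nr1h2 (-0.4). It also moved the median of all genes to -1.28, -1.19, -1.15 and -1.07 in these 4 comparisons. The cause of the other changes was not tested.

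Equal replicate numbers did not pair the cold with the thermoneutral libraries of a tissue, which came from different animals. Correlations of their deviations were -0.162 to 0.487 in BAT, -0.659 to 0.277 in iWAT, -0.799 to 0.356 in eWAT and -0.066 to 0.136 in liver. Of 10 libraries, 3, 2, 0 and 2 correlated best with their own number in the other exposure. Between tissues of 1 exposure no comparison had all 5 pairs over 0.1. The most were 4 in thermoneutral iWAT with eWAT (0.009 to 0.408) and 3 in cold iWAT with eWAT (-0.113 to 0.493) and cold BAT with iWAT (-0.034 to 0.221). Libraries of unlike number were not compared between tissues, so whether equal numbers mark 1 mouse was not tested. With the replicate block 15 members were higher and 6 lower in BAT, 0 and 0 with 108 genes called in iWAT, 0 and 0 with 22 genes in eWAT, 0 members with 5 genes in liver, and, with exposure and number as a block shared by the tissues, 0 higher between liver and eWAT; the other counts between tissues moved by at most 1.5 times. Depth limits Abcg5, Abcg8 and Soat2 in fat, which were near 0 CPM there.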
